A study of Mus musculus with 6 samples.

Results

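Maternally methylated imprinting control regions are stretches of DNA whose methyl groups are laid down in the egg, and 10 of them were examined here in the adult mouse testis. They are the control regions of Plagl1, Nnat, Peg10, Grb10, Airn, Kcnq1ot1, Peg3, Snrpn, Mest and Impact. The members of the set were cytosine positions inside 10 fixed windows of the mouse build GRCm38 with at least 5 reads in all 6 libraries. That rule kept 274 of the 1122420 positions so covered in the genome, and they fell in 9 of the 10 windows. The Peg3 window held no such position and was unmeasured.

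The samples were right testes of male KM mice taken at body maturity and frozen. KM is an outbred stock, so the animals were not genetically identical. Before puberty 3 mice had lost the left testis (hemicastrated), and 3 had sham surgery with both testes kept (the sham group, labelled normal mice). Each mouse gave 1 library by reduced representation bisulfite sequencing, in which the enzyme MspI cuts DNA at CCGG and fragments of 40 to 220 bp are converted with bisulfite and sequenced, so that unmethylated cytosines read as thymine. Whole testis was used, so a level is an average over germ cells and somatic cells, and fewer methylated cells and less methylation per cell cannot be told apart. The 6 libraries held 64504011 to 78630942 methylation calls, and calls on mitochondrial DNA were methylated in 0.478% to 0.617% of cases.

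An imprinted gene is read from the copy inherited from 1 parent. At a maternally methylated control region the egg's copy carries DNA methylation and the sperm's copy does not, and the mark is kept through life in somatic cells by the zinc finger protein ZFP57, its partner KAP1 (Trim28) and the maintenance enzyme DNMT1. In primordial germ cells the mark is erased on both copies, and in the male germ line it is not put back. Most control regions overlap a promoter, either of a protein-coding gene expressed from the paternal copy or of a long noncoding RNA that silences its neighbours.

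RefSeq promoters (GRCm38.p6, 250 bases before to 50 after a gene start) lay within the windows of 7 of the 10 genes. They were searched on both strands for TGCCGC, the core of the ZFP57 binding motif, and for CCGG, the MspI site. Neither motif contains the other. TGCCGC was present in 4 of the 7 promoters, those of Plagl1, Nnat, Snrpn and Mest, and in 11.6% of all 32817 promoters of the same length. These 4 held 26, 17, 7 and 17 CpGs, and those of Airn, Kcnq1ot1 and Peg3 held 3, 9 and 13. The median over all promoters was 7. The motif contains a CpG and the 11.6% was not matched for CpG number, so no enrichment is shown. CCGG was present in the same 4, and in 52.8% of all promoters. The promoters of Airn, Kcnq1ot1 and Peg3 held neither string, which says only that these letters are not in these promoters. The rest of each window was not searched.

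The first 3 sequences below are the promoters that also held measured positions. Capitals mark CpG dinucleotides with at least 5 reads in every library, so the letters show which part of a promoter the fragments reached. The Plagl1 promoter is at chr10:13090582-13090881 on the forward strand, the Nnat promoter at chr2:157559828-157560127 on the forward strand, and the Snrpn promoter at chr7:60005150-60005449 on the reverse strand.
Plagl1: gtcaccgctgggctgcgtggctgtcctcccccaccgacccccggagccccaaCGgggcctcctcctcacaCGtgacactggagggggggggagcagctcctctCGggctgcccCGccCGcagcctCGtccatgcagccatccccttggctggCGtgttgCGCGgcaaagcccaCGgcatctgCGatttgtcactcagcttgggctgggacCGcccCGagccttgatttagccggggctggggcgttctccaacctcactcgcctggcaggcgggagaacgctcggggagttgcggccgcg
Nnat: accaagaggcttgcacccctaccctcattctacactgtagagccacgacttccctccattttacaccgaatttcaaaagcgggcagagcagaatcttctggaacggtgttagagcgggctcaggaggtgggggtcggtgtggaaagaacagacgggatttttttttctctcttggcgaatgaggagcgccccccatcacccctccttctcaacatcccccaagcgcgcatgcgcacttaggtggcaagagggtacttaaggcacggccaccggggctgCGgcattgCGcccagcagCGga
Snrpn: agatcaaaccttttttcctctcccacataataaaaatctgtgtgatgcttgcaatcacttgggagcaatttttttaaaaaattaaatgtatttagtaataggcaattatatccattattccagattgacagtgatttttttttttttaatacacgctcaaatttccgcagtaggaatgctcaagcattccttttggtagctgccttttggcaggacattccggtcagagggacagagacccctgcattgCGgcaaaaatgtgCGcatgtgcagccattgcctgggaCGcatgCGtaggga
The Mest promoter, at chr6:30737800-30738099 on the forward strand, is shown because it held no measured position. Capitals mark the 2 matches of TGCCGC, read here on the opposite strand as GCGGCA.
Mest: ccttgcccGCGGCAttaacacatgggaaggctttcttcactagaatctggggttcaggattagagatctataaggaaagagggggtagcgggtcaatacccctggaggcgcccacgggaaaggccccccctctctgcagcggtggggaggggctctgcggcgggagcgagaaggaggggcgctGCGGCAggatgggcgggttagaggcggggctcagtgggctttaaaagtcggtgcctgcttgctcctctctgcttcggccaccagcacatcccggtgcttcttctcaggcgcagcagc

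All 23 measured positions in these promoters were cytosines of CpG, and the same held for 144073 of 144093 measured positions checked in promoters of the whole genome. Plagl1 had 13 of its 26 promoter CpGs measured, Snrpn 4 of 7 and Nnat 3 of 17, the last on both strands. In each of those 3 promoters the TGCCGC match itself held a measured CpG. At Snrpn this CpG was methylated at 14.6% on average, from 5.80% to 20.3% over the libraries. At Nnat its 2 strands read 11.2% and 7.09%, and at Plagl1 it read 5.72%, with 0% in the 4 libraries that had 7 or 8 reads and 16.7% and 17.6% in those with 18 and 17 reads.

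All 9 measured windows had low levels above 0. The Mest window is counted among them, although its measured positions lay far from the promoter and whether they belong to the control region was not settled. The mean level, averaged over positions and libraries, ran from 7.51% at Plagl1 to 13.9% at Snrpn, and no position passed 50% in any library. Of the 274 positions, 250 had a mean level between 5% and 15%, which is 91.2% of them. Among all 1122420 positions 3.46% lay in that range. The highest of the 1644 single measurements was 41.7% and 137 were 0%.

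Because a CpG-rich fragment carries many CpGs on the same reads, positions are not independent. Positions within 220 bp whose read numbers matched in all 6 libraries were taken as 1 read group, meaning 1 strand of 1 fragment. The 274 positions formed 30 read groups, and the read numbers given below count each group once.

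Plagl1 encodes a zinc finger transcription factor that restrains cell growth. Its 33 measured positions reached from 198 bp before to 143 bp after the gene start, with 292 to 358 reads a library. The hemicastrated libraries stood at 8.01%, 3.77% and 11.7% and the sham libraries at 6.96%, 11.1% and 3.56%. Low and high libraries occurred in both groups. The read group with the widest range was the shallow one before the start, with 7 to 18 reads, which ran from 0% to 16.0%. The 2 strands of the deeper fragment, 61 to 143 bp after the start with 124 to 190 reads each, ran from 6.004% to 10.8% and from 4.14% to 13.6%.

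Nnat encodes neuronatin, a small membrane protein, and lies within an intron of Blcap. It had the most measured positions, 66 in 7 read groups, 28 to 1665 bp after its start. Its hemicastrated levels were 13.9%, 8.08% and 9.93%, and its sham levels 12.0%, 9.50% and 8.85%. The highest library was hemicastrated and so was the lowest. Inside the region, the tile of 500 bp nearest the start averaged 9.32% and the tile farthest into the gene 12.4%. The position with the highest mean of all 274, 22.7%, was in the latter, in a read group with 10 to 40 reads a library whose level ran from 2.55% to 31.1%.

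Peg10 is a gene derived from a retrotransposon and needed for the placenta. Its 22 positions were the 2 strands of 1 fragment, 57 to 179 bp inside the gene's boundary, next to Sgce. Levels were 12.3%, 5.61% and 13.0% in hemicastrated and 11.02%, 6.94% and 5.32% in sham libraries. Sham library 1 stood among the higher ones, and hemicastrated library 2 among the lower. The 2 strands, though cut from the same fragment, differed by up to 13.9 points in 1 library (4.07% against 17.97% in sham library 1).

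Snrpn encodes SmN, a protein of the splicing machinery, and belongs to the locus of the Prader-Willi and Angelman syndromes. It had the highest mean of the 9, from 12 positions of 2 read groups, from 1 bp before to 156 bp after the gene start inside the window. Hemicastrated libraries read 15.2%, 12.8% and 10.01%, and sham libraries 11.7%, 18.6% and 15.01%. The groups overlapped, with the highest value in a sham and the lowest in a hemicastrated library. The read group at the start, with 53 to 82 reads, averaged 15.5%, and the one farther in, with 8 to 31 reads, 8.94%.

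Mest encodes a protein of the alpha/beta hydrolase family. Its measured positions were 9, in 1 read group of 11 to 25 reads, 2574 to 2720 bp before the start whose promoter is printed above and 1824 to 1970 bp after the first start listed for the gene. The region's own promoter was therefore not reached. Levels were 20.2%, 26.0% and 13.4% in hemicastrated and 3.51%, 0.483% and 16.7% in sham libraries. Sham library 3 lay inside the range of the hemicastrated ones. Counted as the median over positions, methylated reads were about 3 methylated of 17, 4 of 15 and 3 of 22, against 0 of 19, 0 of 25 and 2 of 11.

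Impact encodes a protein that restrains the kinase GCN2, and its control region lies inside the gene. It was the deepest of the set, with 46 positions in 6 read groups and 530 to 674 reads a library. Its levels were 9.90%, 11.6% and 9.57% in hemicastrated and 12.5%, 12.4% and 9.42% in sham libraries, so all libraries lay between 9.42% and 12.5%. Its read groups averaged from 7.23% to 13.5%.

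Airn is a long noncoding RNA that starts inside Igf2r on the opposite strand and silences it in cis on the paternal copy. Its 24 positions lay 287 to 1056 bp after the Airn start. Levels were 9.06%, 11.6% and 9.96% in hemicastrated and 10.6%, 10.999% and 9.42% in sham libraries. The SD over the 6 libraries, 0.962 points, was the smallest of the 9 regions. It was below the 2.63 points expected from counting reads pooled over read groups, so it does not show an unusually steady level. Where both strands were measured they differed by up to 11.7 points, at 17.2% and 5.58% in hemicastrated library 2. The tile nearer the start averaged 9.83% and the next one 11.1%.

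Kcnq1ot1 is a long noncoding RNA that starts inside Kcnq1 and silences neighbours such as Cdkn1c. Both strands of 1 fragment, 936 to 1049 bp after its start, gave 18 positions with 44 to 87 reads. Hemicastrated libraries read 11.7%, 9.10% and 1.44%, and sham libraries 8.41%, 7.45% and 9.09%. The value of hemicastrated library 3, about 1 methylated read of 54 (Wilson 95% interval 0.328% to 9.77%), was the lowest of any region with more than 25 reads a library. The forward strand averaged 4.84% and the reverse strand 10.9%, and in sham library 1 they read 0% and 16.8%.

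Grb10 encodes an adaptor protein that dampens insulin receptor signalling. Its control region lies inside the gene, and the 44 measured positions were 1115 to 2332 bp after the nearer of its RefSeq starts. Levels were 8.28%, 8.23% and 12.5% in hemicastrated and 8.31%, 9.57% and 6.09% in sham libraries. Hemicastrated library 3 was the highest and sham library 3 the lowest, with the others between 8.23% and 9.57%. Tile means were 8.25% and 9.83%.

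**Figure D1:**
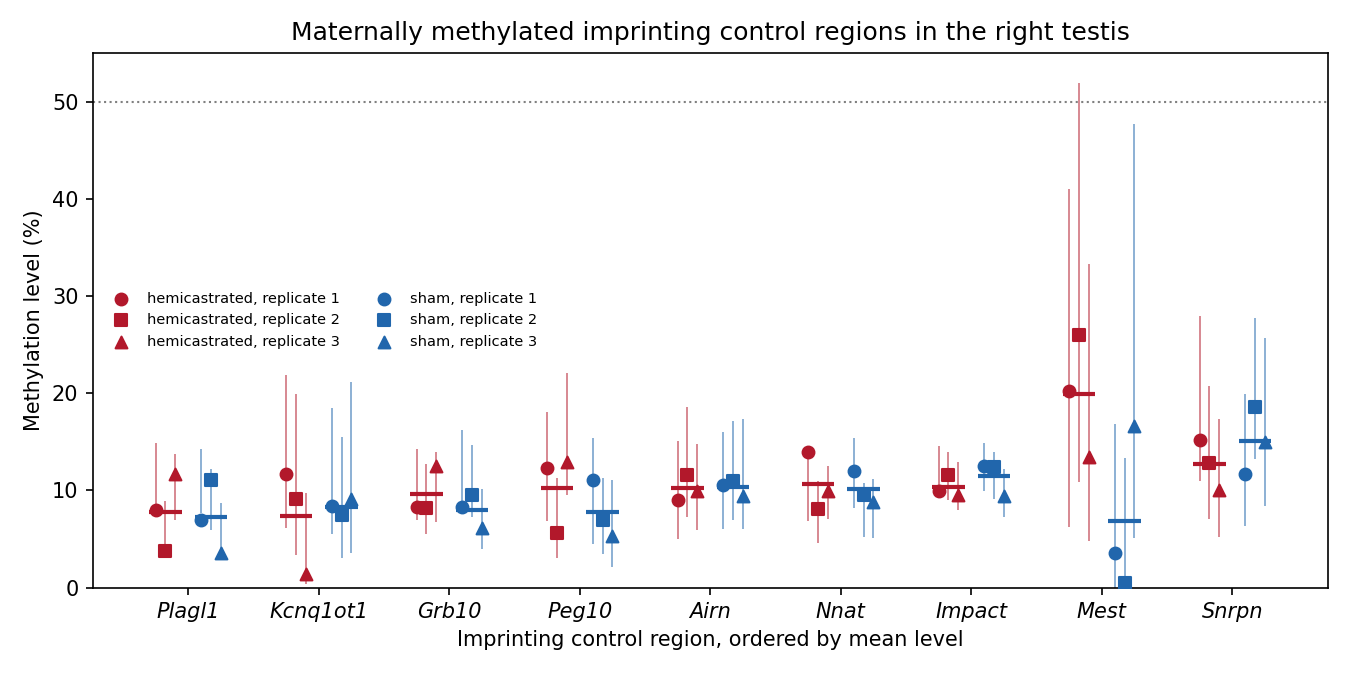
Methylation level in percent (vertical axis) of the 9 measured control regions, ordered by mean level. Libraries are 3 hemicastrated (red) and 3 sham (blue), thick bars are group means and the dotted line is 50%. Thin lines are Wilson 95% intervals of the methylated share among reads counted once per read group. The points are unweighted means over positions, so a point can lie outside its line. At Plagl1 in hemicastrated library 1 the point is 8.01% and the line 8.31% to 14.9%. Region means run from 7.51% to 13.9% and both groups overlap at each region.

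Ordered from low to high the regions were Plagl1, Kcnq1ot1, Grb10, Peg10, Airn, Nnat, Impact, Mest and Snrpn. None of the 8 gaps between neighbours in this order was larger than the SD over libraries of the regions on either side, so the order is a description. The intervals drawn treat reads as independent and cover counting error only, because copies made by PCR are not separate molecules.

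Averaged over the 6 libraries, levels within a region differed little between positions. The SD of these mean levels had a median of 2.30 points over the 9 regions and was at most 3.24 points, at Nnat. The comparison set was 883 tiles of 3000 bp elsewhere in the genome with at least 9 positions and a mean between 7.51% and 13.9%. Their median SD was 7.30 points, and 17.4% of them had an SD no higher than that of Nnat. Of these tiles, 36.9% held a position with a mean above 50%, and none of the 9 regions did. In single libraries the levels were less even, as the strands of Peg10 and Kcnq1ot1 in sham library 1 show, and the averages of the 2 Snrpn read groups were 15.5% and 8.94%. The windows differ in length from the tiles. The measured stretches ran from only 114 bp at Kcnq1ot1 to 1638 bp at Nnat, and a tile can hold fragments from across 3000 bp. Many positions also share reads, so these values are a description with no test. The part of the shorter span in the lower SD was not tested.

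**Figure D2:**
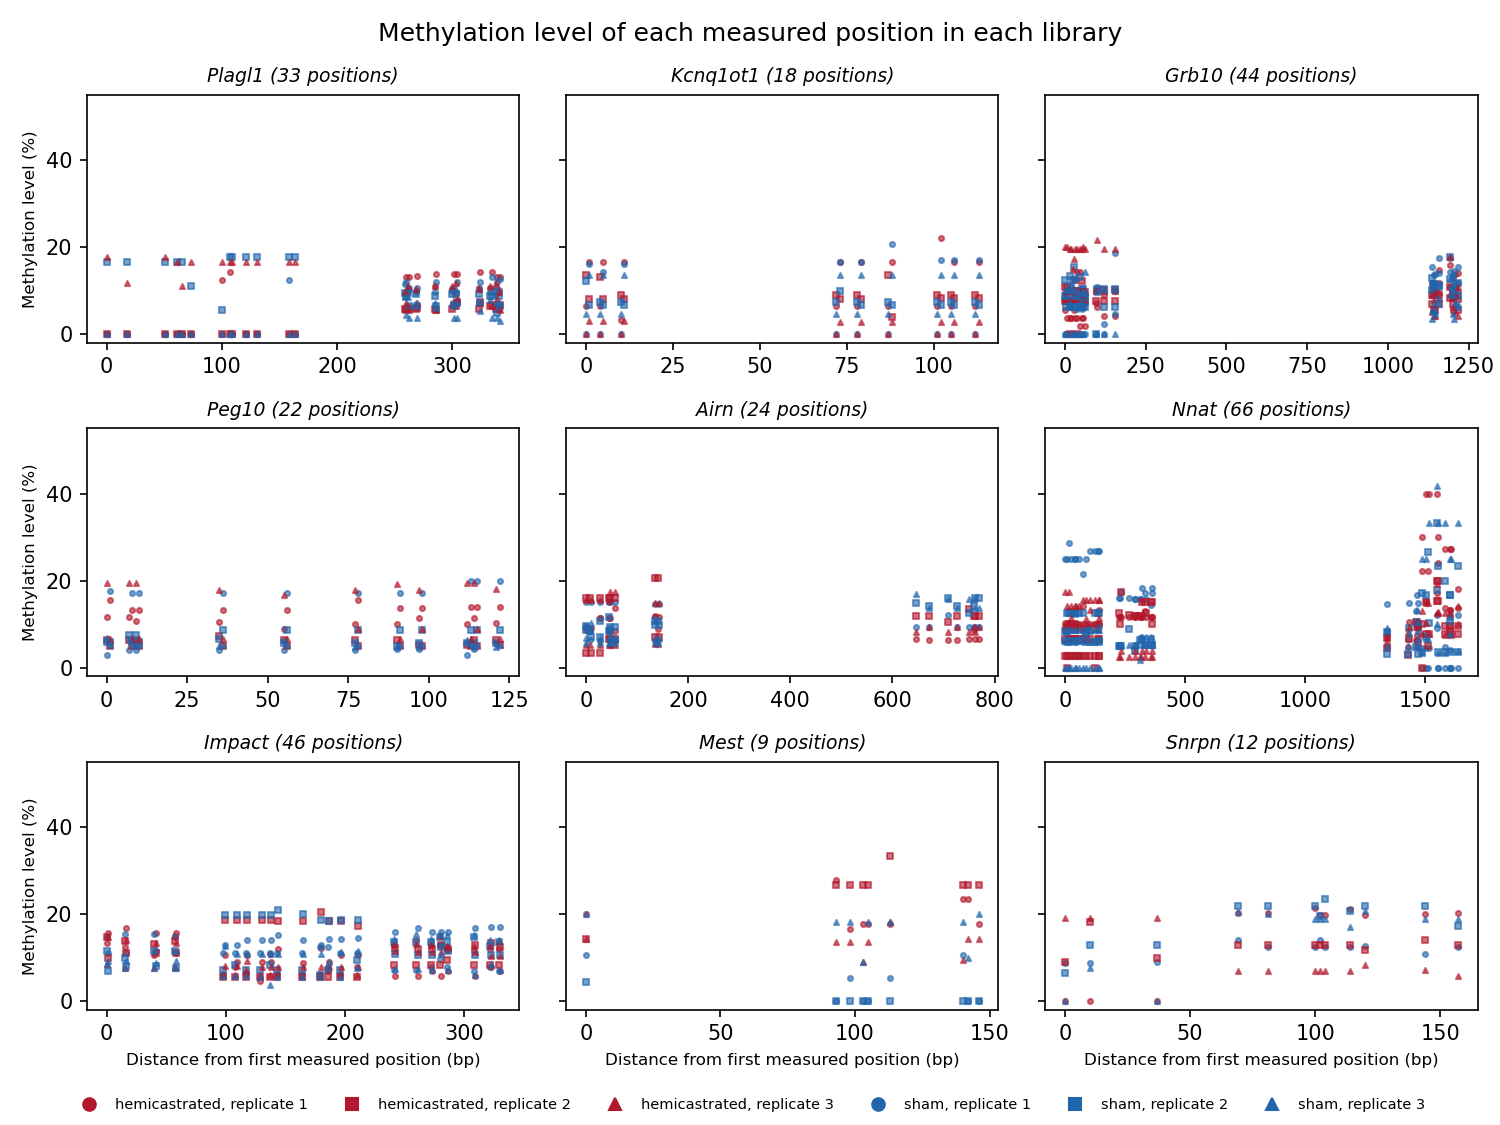
Methylation level in percent (vertical axis) of each measured position against its distance in bp from the region's first measured position, 1 panel per region, with red symbols for hemicastrated and blue for sham libraries and a shape for each replicate. Runs of like symbols are positions on the same reads, and no symbol passes 41.7%.

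**Figure D3:**
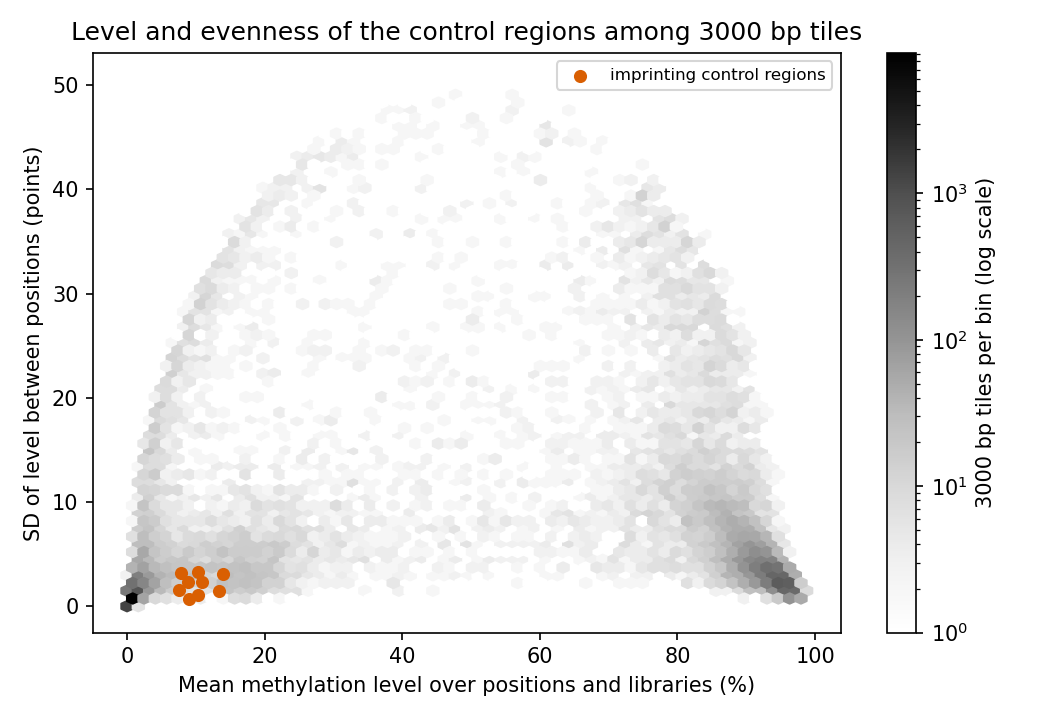
SD of mean level between positions in percentage points (vertical axis) against mean level in percent (horizontal axis), with 3000 bp tiles as grey hexagons shaded on a log scale and the 9 control regions as orange points. The regions sit at 7.51% to 13.9% with an SD of at most 3.24 points.

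Levels of this size were uncommon. Of 64211 tiles of 3000 bp that touch no control region, 24.0% had a mean below 5%, 51.8% had a mean above 80%, and 2.54% lay within the range of the 9 regions. Other loci known as maternally methylated had like levels at their gene starts (1000 bp to either side). Of 5 measured of 6 listed, 4 lay between 9.93% and 12.5%: the retrogenes Mcts2 at 9.93%, Nap1l5 at 10.7% and Zrsr1 at 12.5%, and the amino acid transporter Slc38a4 at 10.6%. Inpp5f, whose listed gene start is not the control region of its imprinted transcript, read 0.650%, and Cdh15 was unmeasured.

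Gene starts of loci methylated on the paternal copy gave no single level. The windows were set at gene starts and not at the control regions, so these levels do not describe the control regions. The start of Meg3, a noncoding RNA near a paternally methylated control region, read 80.03%, at 74.8% ± 10.8 in hemicastrated and 85.2% ± 9.41 in sham mice (SD, n = 3 each). Gene starts of Rasgrf1 and Zdbf2 read 0.876% and 0.844%, and H19 was unmeasured.

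The labels give the tissue as testis, and gene starts known to be methylated in somatic cells and unmethylated in male germ cells were measured as a check of its cell content. Of 14 listed, 10 were measured, and Ddx4, Syce1, Stk31 and Tdrd1 were not. Their mean levels ran from 7.62% at Dazl, an RNA-binding protein of germ cells, to 24.6% at Hormad1, a protein of meiotic chromosome axes, and none was at 0. The mean over the 10 was 21.4%, 18.1% and 18.7% in hemicastrated and 17.7%, 17.1% and 17.6% in sham libraries, or 19.4% ± 1.76 against 17.5% ± 0.343 (SD, n = 3 each). In each library the mean over the 9 control regions was below this value, at 0.527 to 0.595 of it. With Mest left out the range was wider, from 0.474 in sham library 3 to 0.634 in sham library 2. In the mean over the 10 gene starts each hemicastrated library was above each sham library, so the groups did not overlap. Of single regions and tiles in the genome, 9.72% had groups that did not overlap. Of the 10 gene starts, 7 were higher and 3 lower in hemicastrated mice, and 0 had an unadjusted edgeR p below 0.05. Both means were highest in hemicastrated library 1.

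**Figure D4:**
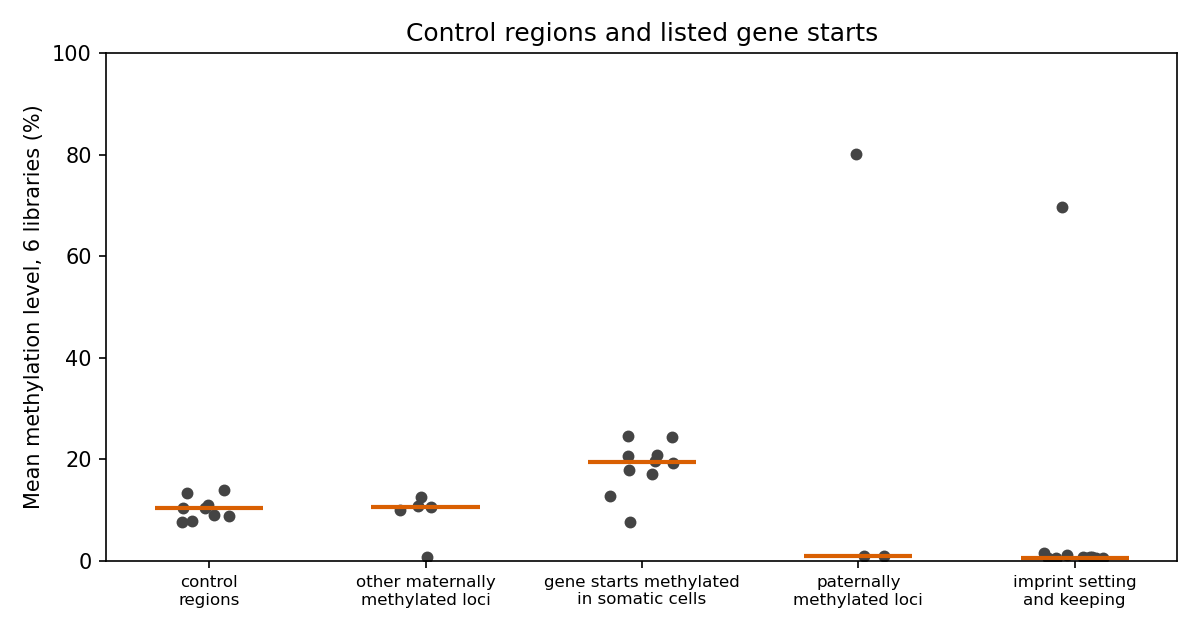
Mean methylation level in percent over the 6 libraries (vertical axis) of the 9 control regions and of the gene starts in 4 lists, 1 point per region or gene with the list's median as an orange line. The control regions, at 7.51% to 13.9%, lie below most of the gene starts methylated in somatic cells, at 7.62% to 24.6%.

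Hemicastrated and sham testes were then compared at each region. No region passed the test, and the 2 groups overlapped at all 9, where 9.72% of the 64220 regions and tiles in the genome had groups that did not overlap. In edgeR's quasi-likelihood test, fitted together with all tiles of the genome, 0 of 9 regions were called at an adjusted p below 0.05, and the adjusted p was 1 at each. The same threshold was passed by 0.00156% of all 64159 features tested, which is 1 tile. With limma the regions called were also 0.

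At an unadjusted p below 0.05 edgeR had 1 of 9 regions, Mest, against 4.24% of all features. The Mest level was 19.9% ± 6.33 in hemicastrated and 6.89% ± 8.60 in sham mice (SD, n = 3 each). The difference was 13.0 points with a standard error of 6.17, an unadjusted edgeR p of 0.0255, and an exact two-sided permutation p of 0.2 where 3 against 3 cannot go below 0.1. It rests on the 11 to 25 reads of 1 fragment strand far from the promoter.

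At the other 8 regions the difference lay between -2.44 and 2.53 points, smaller than its standard error at each. At Snrpn the level was 12.7% ± 2.61 in hemicastrated and 15.1% ± 3.43 in sham mice, the largest difference downward. At Peg10, the largest upward of the 8, it was 10.3% ± 4.07 against 7.76% ± 2.94 (SD, n = 3 each), a difference of 2.53 points with a standard error of 2.90. Permutation p, exact and two-sided, lay between 0.4 and 1.0 at the 8 regions, and unadjusted edgeR p between 0.112 and 0.9505.

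The other 6 regions had close group means. Grb10 stood at 9.66% ± 2.44 against 7.99% ± 1.76, and Plagl1 at 7.81% ± 3.95 against 7.21% ± 3.78. Nnat stood at 10.6% ± 2.99 against 10.1% ± 1.67 and Airn at 10.2% ± 1.28 against 10.3% ± 0.813. Impact, with the most reads, stood at 10.3% ± 1.07 against 11.4% ± 1.76. Kcnq1ot1 stood at 7.41% ± 5.33 against 8.32% ± 0.826 (hemicastrated first, SD, n = 3 each), and without hemicastrated library 3 its difference turned from -0.906 to 2.08 points. Between animals the SD of the unweighted level was larger than the counting error expected for reads pooled over read groups at 6 of the 9 regions. The unweighted level gives shallow read groups with many positions more weight, so its own counting error can be larger. A spread between animals beyond counting error is therefore not shown. With 3 mice a group, differences of the size of these standard errors were not detectable, and a p above the threshold does not show that the groups were alike.

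Over the 9 regions 5 were higher and 4 lower in hemicastrated mice, with a median difference of 0.529 points. Over all tiles 47.5% were higher and the median was -0.0451 points. The median size of the difference, whatever its sign, was 1.10 points at the regions and 1.05 points at the tiles. The tiles had a median level of 82.2% and were not matched to the regions by level or depth.

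**Figure D5:**
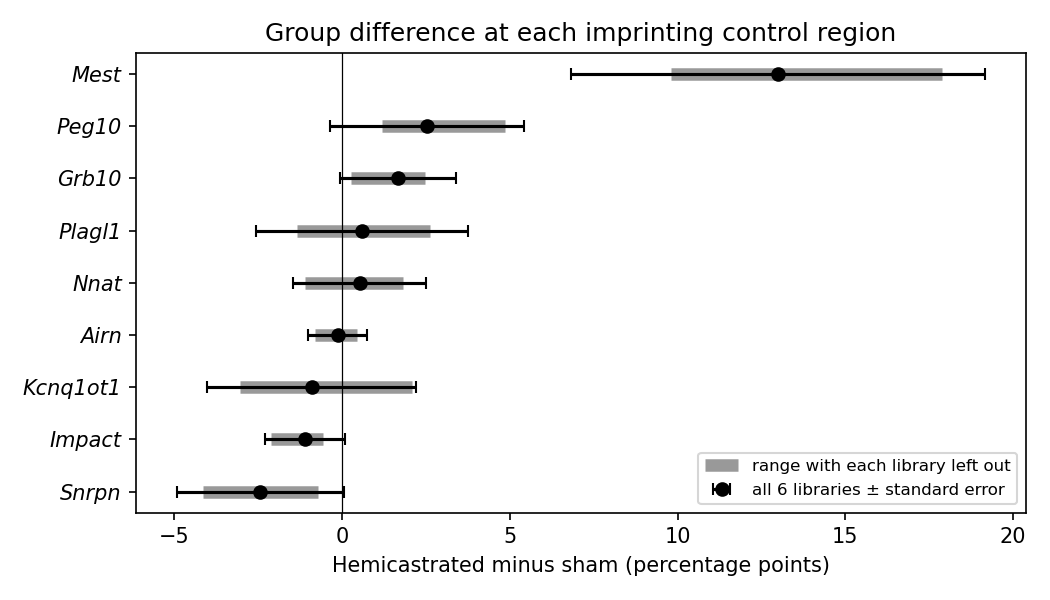
Hemicastrated minus sham level in percentage points (horizontal axis) at each of the 9 control regions, with points for all 6 libraries, black bars for the standard error and grey bars for the range when each library is left out in turn. Only Mest, at 13.0 points, lies beyond 3 points, and the grey bars cross 0 at Plagl1, Nnat, Airn and Kcnq1ot1.

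Averaged over the 9 regions the level was 12.1%, 10.8% and 10.2% in hemicastrated and 9.45%, 9.67% and 9.27% in sham libraries. The hemicastrated libraries were each above the sham ones, at 10.99% ± 0.978 against 9.46% ± 0.201 (SD, n = 3 each). The mean over the 10 gene starts methylated in somatic cells separated the groups in the same direction, and its part in the level of the regions was not tested. Without Mest the libraries read 11.05%, 8.84% and 9.75% against 10.2%, 10.8% and 8.35%, the groups overlapped, and the means were 9.88% ± 1.11 and 9.79% ± 1.29.

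The regions were also cut into tiles of 500 bp, of which 12 could be tested. By edgeR 0 of the 12 passed an adjusted p of 0.05, where 0.0% of 82658 tiles in the genome passed, and 1 of 12, at Mest, had an unadjusted p below 0.05 against 4.28%. At Plagl1, Peg10, Snrpn, Mest and Impact the tile held the same positions as the region, so its test repeats that of the region. The Mest tile is therefore no further result. At Kcnq1ot1 the tile held 16 of the region's 18 positions. Where a region had 2 tiles, they could differ in sign. In Airn the tile nearer the start was 10.7% ± 0.612 in hemicastrated and 8.93% ± 2.15 in sham mice, and the next was 9.14% ± 2.62 and 13.1% ± 2.97 (SD, n = 3 each). In Grb10 the lower tile was 9.97% ± 4.49 against 6.54% ± 1.87 and the higher 9.13% ± 2.15 against 10.5% ± 3.65.

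The widest group difference at a single position of each region was between 4.47 and 18.2 points in size. It was 18.2 points at Mest, where the position had 10 to 25 reads (chr6:30735472), and 10.1 points at Nnat with 20 to 47 reads (chr2:157561661). It was 4.47 points at Impact with 128 to 200 reads (chr18:12973156). Between these lay Grb10 with 8.58, Plagl1 with 7.87 and Peg10 with 7.48 points, all higher in hemicastrated mice. Airn with -6.26, Kcnq1ot1 with -5.84 and Snrpn with -5.40 points were lower. These positions were picked for their difference, so the values carry no test.

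Genes that set or keep imprints were examined at their own starts, from a list of 15 with 14 measured and Dppa3 unmeasured. By edgeR 0 of the 14 passed an adjusted p of 0.05 and 0 an unadjusted one, where 0.0% of 15725 gene windows passed the adjusted and 4.25% the unadjusted threshold; limma also called 0 gene windows. Of the 14, 13 were nearly unmethylated, from 0.302% at the histone demethylase gene Kdm1b to 1.47% at the histone methyltransferase gene Setdb1. Zfp57 read 0.366% and Zfp445, the other zinc finger protein that binds imprinted regions, 0.526%. Dnmt3l, the cofactor of the enzymes that set methylation in germ cells, read 69.6% from 4 positions, at 66.5% ± 12.4 in hemicastrated and 72.7% ± 8.14 in sham mice (SD, n = 3 each).

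The smallest unadjusted p in that list were 0.0851 for Dnmt1, the maintenance methyltransferase, at 0.612% ± 0.178 against 0.456% ± 0.0401, and 0.282 for Trim28, at 0.416% ± 0.0783 against 0.607% ± 0.436 (edgeR; adjusted p above 0.99 for both). Of the 14, 6 were higher and 8 lower in hemicastrated mice, with a median of -0.0609 points. Over all 17914 gene windows 54.5% were higher and the median was 0.0295 points.

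Among the other maternally methylated loci, 0 of 5 passed either threshold by edgeR. The smallest unadjusted edgeR p was 0.0867, at Mcts2, with 11.5% ± 2.81 in hemicastrated against 8.36% ± 1.42 in sham mice. The next was 0.102, at Zrsr1, with 13.7% ± 2.91 against 11.2% ± 3.14. Of the 5, 3 were higher and 2 lower, with a median of 1.11 points. The paternally methylated loci gave 0 of 3, with the smallest unadjusted edgeR p of 0.115 at Rasgrf1 (1.11% ± 0.638 against 0.644% ± 0.390) and 0.217 at Meg3. The gene starts methylated in somatic cells gave 0 of 10, 7 higher and 3 lower with a median of 1.80 points, and the smallest unadjusted edgeR p were 0.105 for Sycp3 (20.4% ± 8.04 against 15.3% ± 3.65) and 0.116 for Zfp42 (15.3% ± 7.85 against 10.2% ± 1.18).

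Peg3 encodes a large zinc finger protein, and its control region spans the facing starts of Peg3 and Usp29. Its window listed 150 positions in any library, none with more than 4 reads in a library. Summed over libraries there were 511 calls, of which 67 were methylated, or 13.1% (Wilson 95% interval 10.5% to 16.3%). The interval treats all calls as independent, although several can come from the same read and the mice differed. It is therefore narrower than the true error. Single libraries read 3.15%, 34.5% and 14.2% in hemicastrated and 18.3%, 3.70% and 8.33% in sham mice, from 36 to 127 calls each. At this depth the groups were not compared by a test.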

How the data were processed

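DNA methylation was measured in 6 libraries, 1 per mouse, 3 hemicastrated and 3 sham. The authors deposited, per position, raw counts of methylated and unmethylated calls, and the deposited percent is the methylated count over both. Per the submitters' processing notes the build was GRCm38, and the tools named, without their roles, were TopHat2 2.0.11 and Bismark. Neither the version of Bismark nor any removal of duplicate reads is given in the sources used here.

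A level is the unweighted mean over positions with at least 5 reads in all libraries, in percent. Counts were summed per region, per fixed tile of 3000 or 500 bp and per gene window (1000 bp either side of the RefSeq start), each with at least 3 positions. They were tested with edgeR 4.0.16 in R 4.3.3 (methylated and unmethylated counts, a column per library, methylation by group), with Benjamini-Hochberg adjustment over all features. Beside it stand exact two-sided permutation tests of mean levels, whose smallest p is 0.1. The fit was tested on simulated data, with planted shifts larger than the difference at any region. That simulation does not bear on differences of the size seen at the regions. Positions within 220 bp whose reads agreed within 3 reads or 10% formed a read group. The reads of a region are the sum over its read groups of the median coverage. Methylated reads are the same sum of median methylated counts, and Wilson 95% intervals came from them.

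All 10 control regions were named, with for each the 500 bp tiles of highest and lowest level and the position of widest difference. For each list the members past the test were named, or otherwise the 2 with the smallest p. Members and lists were chosen with earlier results of these data known. Alternatives were limma 3.58.1, other read minima, a robust prior, a replicate block, other averages, positions spanning 40 points left out, and each library left out. Animals are separate per the labels. Promoter sequences are from RefSeq, and regions without an entry have none printed.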

Additional observations from a re-analysis of the deposited data

Results flagged for a closer look

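Positions that missed 5 reads in at least 1 library entered no comparison above, and their calls were summed per region. Such a position can be deep in other libraries, with up to 176 reads at Grb10 and 22 at Snrpn. At 5 of the 10 regions the Wilson 95% interval of the hemicastrated group's share of methylated calls lay above that of the sham group, as it did at 10.5% of 1103 tiles with levels in the range of the regions and at least 50 such calls a group. These intervals treat the calls of 3 mice as independent, several calls come from 1 read and the positions differ between libraries, so they are narrower than the true error. Among the 9 regions compared above, the hemicastrated share was higher at 8, where it was higher at 53.8% of the tiles. The difference between groups was not tested.

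At Peg10 11.3% of 150 calls were methylated in hemicastrated against 0.826% of 121 in sham mice. It was the 1 region of the 5 whose libraries did not overlap, at 3.33%, 31.3% and 6.82% against 2.94%, 0% and 0%, and without hemicastrated library 2 the hemicastrated share was 5.93%. At Grb10 the shares were 18.98% of 1955 and 11.1% of 4532 calls. Of the hemicastrated calls there, 79.5% came from library 1, without which the share was 12.2%, and the highest library was a sham one, at 34.0%.

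At Kcnq1ot1 the shares were 28.7% of 188 and 11.7% of 145 calls, with 64.5%, 11.1% and 0% in hemicastrated and 16.3%, 0% and 20.9% in sham libraries. Without hemicastrated library 1 the hemicastrated share was 4.46%, below the sham share. At Impact they were 15.4% of 228 and 2.21% of 181, with 8.11%, 31.3% and 9.20% against 0%, 0% and 17.4%, and 8.70% in hemicastrated mice without library 2. At Snrpn they were 16.4% of 556 and 6.67% of 360, and the lowest library was a hemicastrated one, at 1.94%.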

How the results depend on the processing

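Of 199 alternative values, 192 were counted as unchanged and 7 changed sign, each when 1 library was left out. Part of this was fixed by the way the values were computed. Limma, the robust prior and the replicate block changed only the adjusted p, so no sign could change. Coverage weights, merged strands and averages per read group changed only the difference, and the test was not refitted. No position spanned 40 points, so leaving such positions out changed no difference. Levels counted as unchanged when they moved by less than the SD over libraries. The lowest adjusted p of any region under any refitted alternative was 0.95. Leaving out each library in turn, the difference (hemicastrated minus sham, in points) ran from -1.33 to 2.62 at Plagl1, with -1.33 without hemicastrated library 3 and -1.23 without sham library 3. It ran from -1.11 to 1.81 at Nnat, with -1.11 without hemicastrated library 1 and -0.104 without sham library 3. At Airn it ran from -0.815 to 0.448, with 0.448 without hemicastrated library 1 and 0.212 without sham library 2, and at Kcnq1ot1 from -3.04 to 2.08, the latter without hemicastrated library 3. It kept its sign at Peg10 (1.19 to 4.87), Grb10 (0.265 to 2.46), Snrpn (-4.13 to -0.702), Mest (9.80 to 17.9) and Impact (-2.12 to -0.568). Under the other alternatives that recomputed the difference no sign changed. Grb10 fell to 0.00424 and Kcnq1ot1 to -3.22, and Airn went to -0.936 and Impact to -0.405. Nnat rose to 2.15 and Peg10 to 3.91, and Snrpn ran from -4.29 to -0.589. The mean level over the regions was 10.2%, and 10.5% with at least 10 or 20 reads. With the replicate block 0 regions were called. Libraries with the same number deviated together little, with correlations across tiles of 0.0394, 0.0594 and 0.0175. Those of hemicastrated and sham libraries with other numbers ran from -0.0736 to 0.0356. The numbers were not treated as pairs. Averaging per read group was added after the data were seen. Mest had no position with at least 20 reads and gave no value there. In the genome 0 to 2 tiles of 3000 bp were called, depending on the fit. Counted over reads pooled over read groups, read number limits Mest, Snrpn and Kcnq1ot1 most, with expected counting SDs of 7.87, 3.88 and 3.67 points.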
